A study of Mus musculus with 6 samples.

Results

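In nuclei of visual cortex astrocytes, 445 regions of open chromatin gave stronger ATAC-seq peaks in every library without the glucocorticoid receptor (GR) than in any control library. ATAC-seq marks open DNA by letting the Tn5 transposase insert sequencing adapters into it. The peaks of all 6 libraries were merged into 185015 regions, of which 90301 held a peak in every library and are called shared. The strengthened regions were chosen by the −log10 p of the strongest peak per library, a measure of how far its coverage exceeded the local background of that library. The lowest of the 3 GR-KO values had to be at least 20 and at least 1.5 times the highest of the 3 GR-con values. The 445 regions are 0.493% of the shared regions. The mirrored rule, with GR-con higher, gave 1278 regions, or 1.42%, here called weakened. Since these values chose the regions, they are given as a description without a test.

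The mice carried the floxed GR allele on both copies (GRfl/fl) and received GfaABC1D-Cre-T2A-EGFP-KASH-4x6T in an AAV2/5 vector at P0 to P1, here called GR-KO, or the same construct with ΔCre, an inactive form, here called GR-con. Primary visual cortex (V1) was taken at P21, and 50000 GFP+/DRAQ5+ nuclei were sorted for each library, with tissue of several mice pooled. Cre came from a virus under the GfaABC1D promoter, so deletion was limited to transduced cells in which this astrocyte promoter was active, and all mice received the virus and the nuclear GFP. There were 3 libraries per group, and the lists held 179462 to 198929 peaks each. The lists do not show the deleted exon, so the loss of GR was not checked in these libraries.

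GR is a nuclear receptor that moves to the nucleus when it binds corticosterone and can raise or lower the transcription of nearby genes. It binds DNA as a dimer at inverted repeats, and opens or keeps open many of the elements it occupies. In astrocytes, distal elements commonly carry motifs of the nuclear factor I (NFI) and SOX families.

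The sequences below show the word ACTGTA, or TACAGT on the other strand, in capitals. They are windows reaching 100 bp to each side of the summit base, read 5′ to 3′ on the plus strand of GRCm38 (mm10). The first 6 are those of the 10 largest ratios that hold the word, followed by *Adamts9*, a metalloprotease gene that the study names, and by the largest ratio of all, near *Ghitm*, which lacks the word. The gene names give the nearest protein-coding gene or, where stated, the gene that the window lies in.
Tenm4 chr7:95000929-95001129: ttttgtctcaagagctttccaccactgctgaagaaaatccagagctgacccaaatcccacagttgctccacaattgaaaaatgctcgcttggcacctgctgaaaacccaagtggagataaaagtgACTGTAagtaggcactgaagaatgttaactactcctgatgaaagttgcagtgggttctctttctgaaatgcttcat
Syt1 intron chr10:108692873-108693073: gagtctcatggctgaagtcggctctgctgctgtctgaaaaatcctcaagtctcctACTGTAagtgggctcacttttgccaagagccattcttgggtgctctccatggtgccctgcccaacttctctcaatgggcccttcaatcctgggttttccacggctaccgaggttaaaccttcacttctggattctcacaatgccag
Tbc1d8 exon chr1:39372301-39372501: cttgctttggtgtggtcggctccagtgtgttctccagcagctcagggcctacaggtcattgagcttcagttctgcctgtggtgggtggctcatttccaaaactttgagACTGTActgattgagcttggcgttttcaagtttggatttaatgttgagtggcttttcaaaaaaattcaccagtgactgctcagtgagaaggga
Arhgef17 chr7:100917602-100917802: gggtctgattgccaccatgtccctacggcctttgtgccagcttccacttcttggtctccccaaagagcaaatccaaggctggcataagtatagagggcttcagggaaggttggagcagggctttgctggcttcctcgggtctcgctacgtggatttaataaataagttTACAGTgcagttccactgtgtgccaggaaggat
Dusp26 chr8:30171979-30172179: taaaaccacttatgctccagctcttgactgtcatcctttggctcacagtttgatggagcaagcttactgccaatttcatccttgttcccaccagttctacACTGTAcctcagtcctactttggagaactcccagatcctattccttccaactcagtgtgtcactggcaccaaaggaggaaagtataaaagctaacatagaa
Ptn chr6:36819139-36819339: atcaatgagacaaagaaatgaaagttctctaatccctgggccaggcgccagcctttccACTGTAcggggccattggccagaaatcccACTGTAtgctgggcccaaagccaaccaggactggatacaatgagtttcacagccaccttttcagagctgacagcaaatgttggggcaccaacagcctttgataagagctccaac
Adamts9 chr6:92924680-92924880: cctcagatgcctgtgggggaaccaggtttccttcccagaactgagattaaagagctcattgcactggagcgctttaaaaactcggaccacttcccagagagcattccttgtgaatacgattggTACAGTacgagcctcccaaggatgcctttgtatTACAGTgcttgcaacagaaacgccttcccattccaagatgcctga
Ghitm chr14:37417769-37417969: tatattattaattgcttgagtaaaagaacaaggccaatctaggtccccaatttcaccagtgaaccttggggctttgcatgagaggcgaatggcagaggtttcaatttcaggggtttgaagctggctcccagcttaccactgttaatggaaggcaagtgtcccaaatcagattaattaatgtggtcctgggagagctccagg

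The largest ratio, 7.69, was at chr14:37417560-37418413, an intergenic region 282615 bp upstream of *Ghitm*, a gene of a mitochondrial inner membrane protein. The −log10 p there was 6.83, 6.14 and 5.96 in GR-con 1, 2 and 3 and rose to 52.5, 58.9 and 60.9 in GR-KO 1, 2 and 3. The GR-con values were far below the library medians over shared regions (41.3 to 47.03), and all 3 GR-KO values were above them. At chr7:95000874-95001338, in a gene desert whose nearest gene is *Tenm4*, a teneurin of neuronal wiring, the values were 10.4, 8.87 and 9.24 in GR-con and 63.3, 71.4 and 59.7 in GR-KO. This region lies 1170217 bp upstream of the *Tenm4* TSS.

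The region nearest to *Ptn*, the gene of the secreted growth factor pleiotrophin, combined a large ratio with very strong peaks. It spans chr6:36818958-36820159, with its summit 9019 bp upstream of the TSS. The values were 91.1, 73.0 and 62.7 in GR-con and 393, 363 and 432 in GR-KO. It was the only region among both the 10 largest ratios and the 5 highest of the lowest GR-KO values. Its window holds ACTGTA 2 times. A further strengthened region in an intron of *Ptn*, at chr6:36752788-36753245, had a smaller ratio of 1.51, and 1 of the 40 shared regions nearest to *Ptn* was weakened.

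The other large ratios lay in several kinds of place. The region in an intron of *Syt1*, the calcium sensor of synaptic vesicle release, had values of 6.17, 4.91 and 11.4 in GR-con and 76.6, 49.3 and 56.1 in GR-KO. Its nearest TSS is that of the predicted gene *Gm5136*. A region in an exon of *Tbc1d8*, 4252 bp from the TSS of the ribosomal protein gene *Rpl31*, had values of 6.44, 6.03 and 4.30 in GR-con and 29.3, 37.0 and 27.4 in GR-KO. One of the 10 was a promoter region, 563 bp upstream of a TSS of *Eva1c*, which encodes a receptor of the Slit guidance proteins. Its values were 8.19, 14.3 and 9.95 in GR-con and 76.3, 85.3 and 58.6 in GR-KO. The intronic region of *Arhgef17*, a gene of a guanine nucleotide exchange factor, had 7.90, 16.2 and 14.9 in GR-con and 68.7, 68.7 and 76.3 in GR-KO. The last 3, nearest to *Kynu*, *Dusp26* and *Tdpoz5*, had ratios of 4.43, 4.04 and 3.93. The *Dusp26* region, 917392 bp from its gene, was uneven within the controls, at 20.6, 22.4 and 5.96, against 102, 109 and 90.6 in GR-KO.

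**Figure D1:**
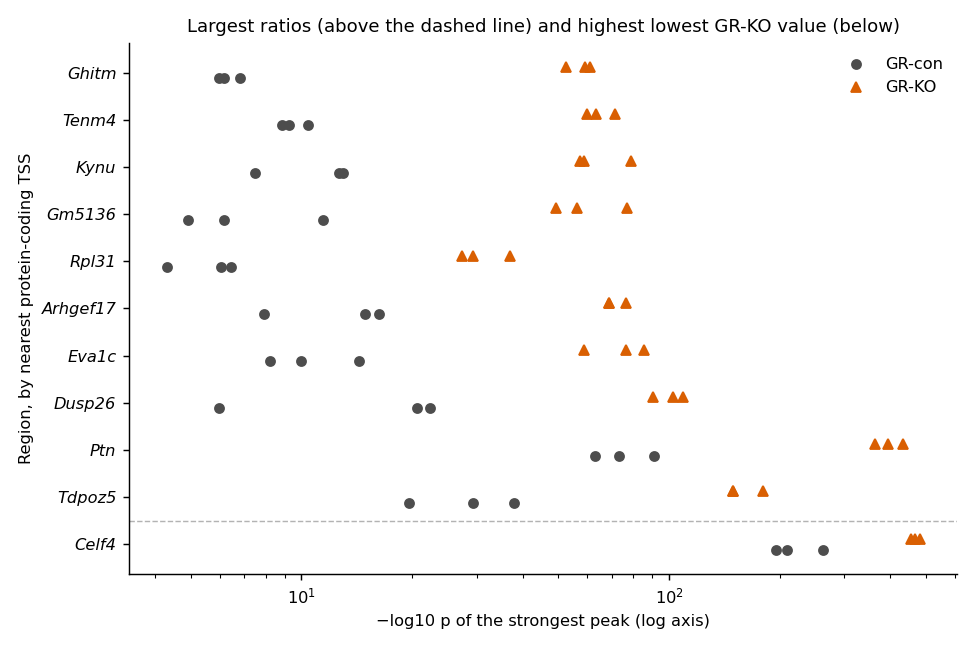
−log10 p of the strongest peak in each library (log axis) for the 10 regions of largest ratio, above the dashed line, and the region with the highest lowest GR-KO value, below it. Circles are GR-con and triangles GR-KO libraries, 3 each. The *Ghitm* region lies at 5.96 to 6.83 in GR-con and at 52.5 to 60.9 in GR-KO, and the *Celf4* region at 195 to 262 and at 454 to 481.

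By the rule, every strengthened region had a peak in the controls too. The lowest GR-KO value ran from 20.1 to 454 (median 44.7), and the highest GR-con value from 6.44 to 262 (median 23.5). Only 20 regions had every GR-con value under 10, and 28 had a highest GR-con value of 100 or more. The ratio was between 1.5 and 2 at 325 regions, between 2 and 3 at 93, between 3 and 4 at 19 and at least 4 at 8. The highest of the lowest GR-KO values was at a region 245188 bp upstream of *Celf4*, which encodes an RNA-binding protein, with 262, 209 and 195 in GR-con and 468, 454 and 481 in GR-KO.

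At the limit itself, the 3 regions just inside were an intron of *Tmem232* (62.5, 130.2 and 74.3 in GR-con, 241, 195 and 207 in GR-KO), a region near *Dio2* (ratio 1.50061) and an intron of *Pde4b* (33.9, 34.4 and 35.0 against 52.6, 55.7 and 59.3). Just outside, at ratios of 1.49823, 1.49766 and 1.49724, were regions nearest to *Map3k13*, *Trib2* and *Slc35c2*. The *Slc35c2* region had 10.4, 8.87 and 13.8 in GR-con and 26.5, 20.6 and 29.2 in GR-KO. Nothing in these values separates the 2 sides of the limit. A further 150 shared regions met the ratio but not the minimum of 20.

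The same peaks were read by their other columns. The median fold over the local background at the strengthened regions was 5.76, 5.73 and 5.17 in GR-con and 9.93, 9.97 and 9.55 in GR-KO. Over all shared regions it was 8.99, 8.95 and 8.45 in GR-con and 8.49, 8.52 and 8.37 in GR-KO. The medians at strengthened regions were below those of shared regions in the controls and above them in GR-KO. Weakened regions had the reverse, with medians of 10.6, 10.6 and 9.19 in GR-con and 5.78, 5.68 and 5.80 in GR-KO. Since fold comes from the same peaks that chose the regions, both orders follow largely from the choice, and nothing is read from them. Every GR-KO fold was above every GR-con fold at 445 of the 445, and at 7.82% of all shared regions. The fold and the p of a peak together give the read coverage at its summit and the background it was compared with, and the solved coverage was a whole number, within 0.02, at 100% of the peaks of shared regions. The median summit coverage at the strengthened regions was 40, 42 and 43 reads in GR-con and 80, 80 and 76 in GR-KO. Over all shared regions it was lower in GR-KO, at 69, 69 and 68 against 74, 73 and 78.

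The ratio of mean GR-KO to mean GR-con coverage had a median of 1.85 at the strengthened regions (1.21 to 4.13) and of 0.941 over all shared regions. For −log10 p it was 2.48 (1.62 to 9.11), and for fold 1.65 (1.11 to 3.85), since −log10 p grows faster than coverage. Every GR-KO coverage, set relative to the lowest background of its library, was above every GR-con one at 445 of 445 strengthened regions (7.33% of shared regions). Fold and coverage come from the same peaks as the −log10 p that chose the regions, so nothing is read from either count. The peaks at strengthened regions were wider in GR-KO, with medians of 508, 515 and 501 bp against 385, 398 and 393 bp. The widths did not overlap, with GR-KO wider, at 200 of the 445 (3.94% of shared regions). The ratio of the group mean widths had a median of 1.22 at strengthened and 0.756 at weakened regions. Widths also come from the peaks that chose the regions, so nothing is read from them. The median local background at the strengthened regions was 6.12, 6.14 and 5.87 reads in GR-KO and 4.29, 4.31 and 5.07 in GR-con, but region by region the ratio of the group means had a median of only 1.04 and was above 1 at 263 of 445 (59.1%, against 18.9% of all shared regions). The lowest background of a library was 4.29, 4.31 and 4.92 reads in GR-con and 4.54, 4.28 and 4.34 in GR-KO. The medians of GR-con 1 and 2 were thus at this lowest value. Above it, the local background is taken from reads around the summit, which include those of the peak itself. At *Ptn* the mean coverage ratio was 4.13 and the mean fold ratio 1.72.

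**Figure D2:**
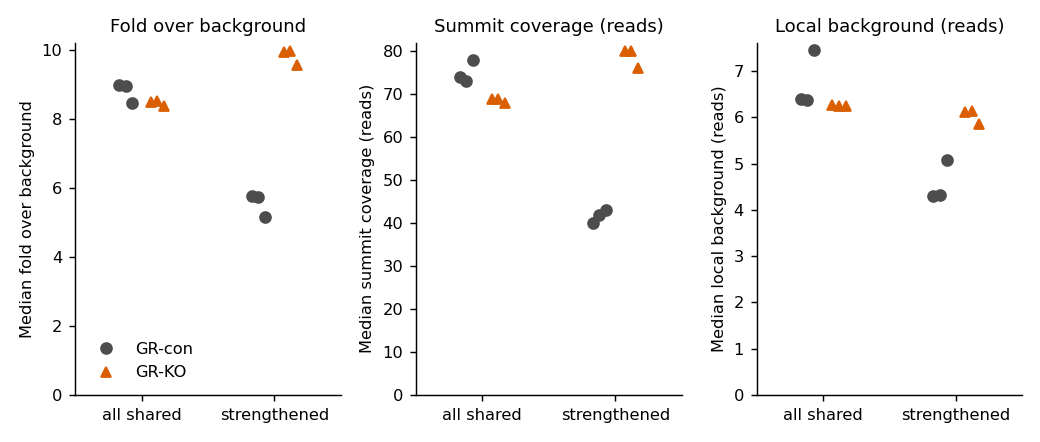
Median fold, summit coverage and local background per library, over all 90301 shared regions and over the 445 strengthened regions; circles are GR-con, triangles GR-KO, 1 point per library. Coverage at the strengthened regions is 40 to 43 reads in GR-con and 76 to 80 in GR-KO, while over all shared regions GR-con is the higher group.

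Since all 6 libraries chose the regions, the choice was repeated on 2 libraries per group and read in the 2 left out, for each of the 9 pairs. The choice on 4 libraries gave 1025 to 1296 regions. Of these, 80.9 to 86.9% were higher in the left-out GR-KO than in the left-out GR-con library, and 48.5 to 60.6% reached a ratio of 1.5 there. Among all shared regions whose 2 used GR-KO values were at least 20, 37.8 to 48.1% were higher in the left-out GR-KO library and 6.39 to 8.51% reached 1.5. The median ratio in the left-out pair was 1.47 to 1.71, against 0.931 to 0.986. All 445 strengthened regions were in each of these sets, and by the rule they are higher in any left-out pair. The shares therefore describe the larger sets and not the 445. The pairs share libraries and are not independent, so no test was made.

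The strengthened regions were mostly distal. Within 1 kb of a protein-coding TSS lay 13 of 445, or 2.92% (exact 95% interval 1.56 to 4.94%), against 17.0% of all shared regions and 4.54% of weakened regions. Introns held 202 (45.4%, against 42.1%), exons 14 (3.15%, against 4.30%) and intergenic DNA 216 (48.5%, 43.8 to 53.3%, against 36.7%). Beyond 100 kb from any protein-coding TSS lay 161, or 36.2% (31.7 to 40.8%), against 17.6% of shared and 21.8% of weakened regions. The median distance to a TSS was 51775 bp, against 21003 bp for shared and 31884 bp for weakened regions. The strengthened regions were also scattered singly: 18 of 445 (4.04%) lay within 50 kb of another, against 232 of 1278 weakened regions (18.2%), a longer list with more chances of neighbours.

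**Figure D3:**
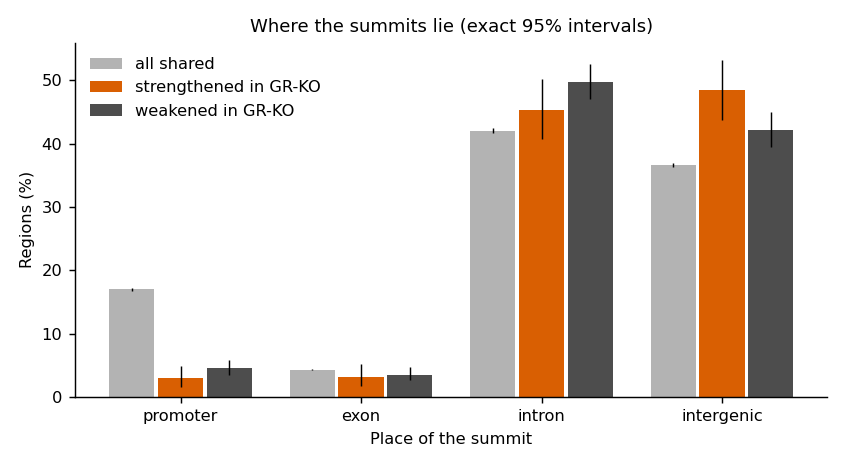
Share of region summits in promoters (within 1000 bp of a protein-coding TSS), exons, introns and intergenic DNA, for all 90301 shared, the 445 strengthened and the 1278 weakened regions, with exact 95% intervals. Promoters hold 2.92% of strengthened against 17.0% of shared regions.

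The windows around the summits were poorer in GC, with a median of 47.8% against 51.7% for shared and 50.2% for weakened regions. Outside promoters the medians were 47.8 and 50.7% for strengthened and shared regions. No CpG was present in 94 of the 445 windows, or 21.1% (17.4 to 25.2%), against 9.45% of shared and 9.55% of weakened regions. Windows that were mostly repeat DNA were about as rare as elsewhere, at 12 of 445 (2.70%, 1.40 to 4.66%) against 2.21%. The median share of repeat bases in a window was nevertheless higher, at 8.46% against 0% for shared and 2.99% for weakened regions.

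Of the 2080 words of 6 bases, counted with their reverse complements, 1266 were in at least 5% of strengthened windows. Among these, ACTGTA had the largest ratio of its share in strengthened regions to that in all shared regions. It was present in 163 of 445 windows, or 36.6% (32.1 to 41.3%), against 7.02% of all shared regions and 4.85% (3.74 to 6.18%) of weakened regions, a ratio of 5.22 to all shared regions. The next words were GTAATA (7.19% against 2.71%, ratio 2.65), ACAGTA (19.1% against 7.37%, ratio 2.59), CTGTAC (15.7% against 6.35%), AACTGT (24.3% against 10.6%) and CTGTAA (21.6% against 9.50%). The last 3 of these overlap ACTGTA by 5 bases, as does ACAGTA, which reads TACTGT on the other strand, so their shares are not separate. The remaining words of the first 10 had ratios of 2.08 to 2.22.

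The share with ACTGTA followed the size of the ratio, including below the limit of 1.5. Among shared regions that met the GR-KO minimum of 20, it was 5.77% (5.47 to 6.07%) at ratios of 0.75 to 1, 10.6% (9.55 to 11.6%) at 1 to 1.2 and 19.3% (16.9 to 21.9%) at 1.2 to 1.5. In the strengthened regions it was 32.9% (27.8 to 38.3%) at 1.5 to 2, 44.1% (33.8 to 54.8%) at 2 to 3 and 55.6% (35.3 to 74.5%, 15 of 27 regions) at 3 or more. At the opposite end, at ratios under 0.5, it was 6.20% (5.59 to 6.85%), close to the share at 0.75 to 1. Neighbouring steps from 1.5 upwards had overlapping intervals. The word was singled out by its share in the strengthened windows, so its high share at 1.5 and above comes partly from that choice. The steps below 1.5 hold no strengthened region.

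**Figure D4:**
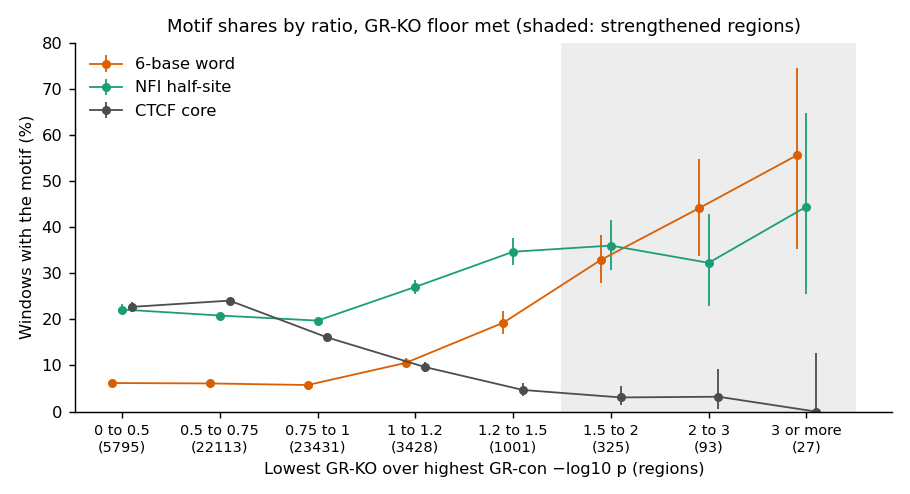
Share of windows with the word ACTGTA, the NFI half-site and the CTCF core, by the ratio of the lowest GR-KO to the highest GR-con −log10 p, among shared regions with every GR-KO value at 20 or more; bars are exact 95% intervals, region counts stand under each step and the strengthened regions are shaded. The word goes from 5.77% at ratios of 0.75 to 1 to 55.6% at 3 or more, while the CTCF core falls from 16.1% to 0 of 27.

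The difference in ACTGTA was also present at like base composition, a comparison added after the shares were seen. Outside promoters and within the middle GC range of the strengthened windows (43.8 to 51.7%), the word was in 79 of 225 strengthened windows, or 35.1% (28.9 to 41.7%), against 8.53% of the other shared regions and 5.01% of the weakened ones. Below that range it was in 45.9% (36.3 to 55.7%) against 10.9%, and above it in 27.6% (19.0 to 37.5%) against 5.36%. Among other shared regions with every GR-KO value at 20 or more, it was in 6.48%.

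The word lay close to the summit. Within 200 bp of the summits of strengthened regions it occurred 285 times at a median distance of 66.5 bp, and 70 of these (24.6%) were within 25 bp. In other shared regions that met the minimum the median distance was 108.5 bp and 10.01% were within 25 bp. The density fell from 157 words per 1000 regions in the first 25 bp to 38.2 at 175 to 200 bp in strengthened regions. It went the other way in weakened regions, from 10.2 to 20.3, and in the other shared regions that met the minimum, from 15.5 to 20.2. Of the 163 windows with the word, 18 held it 2 times (11.04%), against 4.87% of the word-holding windows of other shared regions with 2 or more. The base after ACTGTA was G in 17.1% of the 181 words in strengthened windows and in 34.4% of those in the other shared regions.

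**Figure D5:**
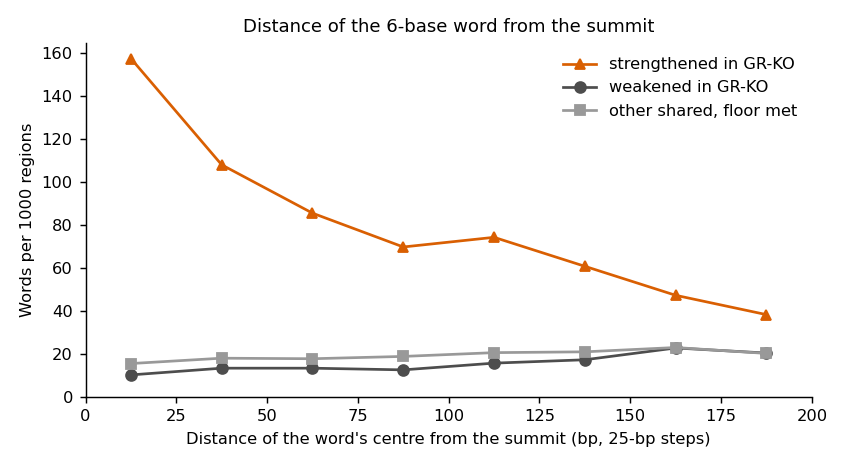
Occurrences of ACTGTA per 1000 regions by the distance of its centre from the summit, in steps of 25 bp, for the 445 strengthened regions, the 1278 weakened regions and the other shared regions that met the GR-KO minimum. The strengthened regions fall from 157 near the summit to 38.2 at the far end, and both other sets lie between 10.2 and 22.9.

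The strengthened regions without the word had somewhat smaller ratios. The 163 with it had a median rule ratio of 1.85 and a median coverage ratio of 1.97, and the 282 without it 1.71 and 1.80. Ratios of at least 2 were reached by 56 of 163 (34.4%) and 64 of 282 (22.7%). The median GC was 47.3 and 47.8%. The largest ratio, near *Ghitm*, and a promoter region of *Eva1c* were among those without it.

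The full GR site, written as GNACA, 3 free bases and TGTNC, was at 0 of the 445 strengthened windows, which allows a share of up to 0.674% when a count of 0 is taken to allow 3, or 0.826% by the exact interval. It was at 0.499% of all shared regions, so that a lower share in strengthened regions was not detectable with this number of regions, and at 9.86% of weakened regions. The half-site AGAACA was at 17.5% of strengthened, 16.8% of shared and 35.3% of weakened windows. The NFI half-site TTGGCA was at 159 of 445, or 35.7% (31.3 to 40.4%), against 22.1% of shared and 26.4% of weakened regions. It stayed apart within the middle GC range outside promoters, at 38.2% (31.8 to 44.9%) against 26.0% of the other shared regions, and below it, at 37.6% (28.5 to 47.4%) against 21.8%, but not above it, at 28.6% (19.9 to 38.6%) against 24.3%. The LIM homeobox word TAATTA was at 11.5% (8.65 to 14.8%) against 6.12%, but within the middle GC range at 10.7% (6.95 to 15.5%) against 7.89%. The TEAD word GGAATG was at 16.2% (12.9 to 19.9%) against 11.4%, but within the middle GC range at 16.9% (12.2 to 22.4%) against 12.7%.

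CTCF and promoter motifs were scarce. The CTCF core, searched as CC and AG with 3 free bases between them and GGC after 2 more free bases, was at 13 of 445 windows, or 2.92% (1.56 to 4.94%), against 16.0% of shared and 8.22% of weakened regions. CTCF is the insulator protein that anchors chromatin loops. Within the middle GC range outside promoters it was at 2.22% (0.725 to 5.11%) against 15.5%. The GC box GGGCGG, a promoter element, was at 2.25% (1.08 to 4.09%) against 15.4%, and the ETS word CCGGAA at 1.80% against 6.02%. Within the middle GC range outside promoters the gaps were smaller, with the GC box at 0.889% (0.108 to 3.17%) against 3.12% and the ETS word at 0 of 225 windows against 2.48%. The AP-1 site TGANTCA (7.19% against 6.02%), the SOX word ACAANG (37.8% against 36.2%) and the E-box CAGCTG (18.7% against 16.8%) were about as frequent as in shared regions. The ZBTB18 word CATCTGGA and the ZBTB12 word TCTAGAAC were at 3 and 2 windows, or 0.674% and 0.449%, against 0.967% and 0.455%.

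Among genes that the study names as higher in GR-KO, which encode matrix proteins and their proteases, 3 of 8 were nearest to a strengthened region, against 419 of all 16569 genes nearest to a shared region. That was 3 of the 128 shared regions nearest to these genes (2.34%, against 0.493% of all shared regions), and 2 of the 128 were weakened (1.56%, against 1.42%). In an intron of *Adamts9*, a secreted metalloprotease of the matrix, at chr6:92924299-92925048, the −log10 p was 14.1, 17.8 and 18.2 in GR-con and 67.5, 69.0 and 65.4 in GR-KO. The groups were far apart there, at a ratio of 3.58, and the window printed above holds the word 2 times. In an intron of *Mmp14*, the membrane-bound metalloprotease, at chr14:54443227-54443523, the values were 5.44, 6.47 and 12.2 in GR-con and 20.8, 33.0 and 28.6 in GR-KO, near the minimum of the rule. The region nearest to *Tnc*, which encodes the matrix glycoprotein tenascin C, lay 348030 bp upstream, with 121, 106 and 103 in GR-con and 295, 234 and 220.4 in GR-KO. No strengthened region was nearest to, or within 100 kb of, *Vcan*, *Adamts5*, *Adamts12*, *Adamts16* or *Mmp2*. The 15 genes named as lower in GR-KO or as bound by GR were nearest to 151 shared regions. Of these, 0 were strengthened (against 0.493% of all shared regions), a list too short to show a lower share, and 14 were weakened (9.27%, against 1.42%). Within 100 kb, *Fam107a*, *Aldh1a1*, *Gjb6*, *Scrg1*, *Mt1* and *Mt2* had 0 weakened regions. The other genes had from 1, as at *Ezr*, to 3 at *Etnppl* and 4 at *Zbtb16*.

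The other gene lists were read in the same way, against the 0.493% strengthened and 1.42% weakened of all shared regions. Axon guidance genes had 10 of 750 nearest shared regions strengthened (1.33%), at 9 genes, and 10 weakened (1.33%). Of the shared regions within 100 kb of these genes, 5 of 644 (0.776%) were strengthened. The 4 of largest ratio were at *Plxna2*, a semaphorin co-receptor, *Unc5d*, a netrin receptor, *Sema6a*, a transmembrane semaphorin, and *Epha3*, an ephrin receptor. The *Plxna2* intron had 15.2, 18.1 and 13.3 in GR-con and 48.9, 64.5 and 46.1 in GR-KO, and that of *Epha3* 81.8, 75.9 and 69.3 against 149, 151.7 and 147. Matrix genes had 5 of 486 (1.03%), at *Col12a1*, *Col5a1*, *Tnr*, *Tnc* and *Gpc5*, and 12 weakened (2.47%). The collagen *Col12a1* region had 6.17, 9.60 and 8.54 in GR-con and 30.5, 32.6 and 49.8 in GR-KO. Metalloproteases and their inhibitors had 2 of 291 (0.687%), the *Adamts9* and *Mmp14* regions above, and 5 weakened (1.72%). Within 100 kb of these genes it was 4 of 417 (0.959%).

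Genes of mature astrocytes had 3 of 540 strengthened (0.556%) and 6 weakened (1.11%). One lay 1374 bp upstream of *Aqp4*, the water channel of astrocyte endfeet, with 18.7, 13.5 and 7.63 in GR-con and 66.4, 59.1 and 49.1 in GR-KO. The others were in an intron of *Rorb*, an orphan nuclear receptor (18.4, 17.9 and 19.6 against 73.6, 54.4 and 42.8), and near *Fgfr3*. Radial glia and immature astrocyte genes had 1 of 500 (0.2%), at *Sox2*, and 12 weakened (2.40%). Notch, Wnt, BMP and Hedgehog genes had 3 of 785 (0.382%), at *Fzd8*, *Tcf7l2* and *Lef1*, all of the Wnt pathway, and 12 weakened (1.53%). The glucocorticoid-inducible genes had 1 of 198 (0.505%), near *Pdk4*, the kinase that inhibits pyruvate dehydrogenase, and 21 weakened (10.6%). The values near *Pdk4* were 125, 128 and 94.9 in GR-con and 256, 323 and 222 in GR-KO. ZBTB repressors had 2 of 232 (0.862%), at *Zbtb20* and *Zbtb7c*, and 5 weakened (2.16%). Early response and reactive astrocyte genes had 0 of 246 and 0 of 118, with 3 weakened in each (1.22 and 2.54%). These counts are small, and no list was tested.

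The 445 regions had 419 different nearest genes, and only *Bnc2* and *Tenm4* were nearest to 3. For *Bnc2*, a zinc finger gene, these were 3 of 27 shared regions, all intergenic, with ratios of 2.08, 1.75 and 1.62 and none with the word. Of the 22 genes with 2, *Pparg*, the nuclear receptor of fat cell formation, had 2 of its 6 shared regions strengthened, 4108 bp apart in 1 intron and both with the word. Larger shares were at *Cbln2* (2 of 4) and *Zswim5* (2 of 5), and *Pparg* is singled out here after its values were seen. The stronger *Pparg* region, at chr6:115469284-115470308, had 28.7, 31.1 and 29.9 in GR-con and 131, 119 and 121 in GR-KO. The weaker had 7.75, 5.14 and 14.5 against 78.8, 50.1 and 42.7.

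The label of the sorted nuclei was checked at the promoters of marker genes. The 8 astrocyte markers had peaks in every library, with a summed −log10 p of 1529 to 1599 in GR-con and 1688 to 1731 in GR-KO. For the other lists, of unequal length, the sums were 287 to 329 against 264 to 309 for 8 neuron markers, 16.0 to 19.6 against 6.47 to 31.2 for 6 oligodendrocyte markers, 317 to 379 against 294 to 334 for 2 precursor markers, 35.4 to 63.6 against 45.3 to 82.1 for 5 microglia markers and 145 to 196 against 180 to 246 for 5 endothelial and mural markers. No library had a peak at *Neurod6*, *Mog*, *Mag*, *Mobp*, *Sox10*, *Cx3cr1*, *Csf1r*, *Aif1*, *Pecam1* or *Cdh5*. Per gene, not every other marker was weaker than the astrocyte ones: the precursor marker *Pdgfra*, at 174 to 228 in GR-con and 155 to 193 in GR-KO, was above *Aqp4*, *Slc1a3*, *Gfap* and *S100b* in every library, and the mural marker *Pdgfrb* was at 127 to 171 and 166 to 224. The neuron marker *Snap25* (119 to 165 over all libraries) and the precursor marker *Cspg4* (130 to 165) were also above *Aqp4* (59.1 to 97.2) in every library. The astrocyte markers *Aldh1l1*, *Gfap* and *Sox9* and the microglia marker *Tmem119* (20.6 to 32.3, against 7.50 to 20.5) were higher in every GR-KO than in any GR-con library, as were 6.81% of all shared regions. The astrocyte marker *Gja1*, the neuron markers *Rbfox3*, *Gad1* and *Gad2*, the precursor marker *Cspg4* and the endothelial marker *Cldn5* were lower in every one, as were 15% of all shared regions. The groups overlapped at the other microglia marker with peaks, *P2ry12* (24.6 to 49.8, against 27.9 to 47.5). The part of other cells in the strengthened regions was not tested. In libraries of many cells, more open alleles and more cells with an open allele cannot be told apart.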

How the data were processed

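Reads went through version v2.2.0 of the ENCODE pipeline for ATAC-seq on mm10, with peaks kept at p under 0.01, and the authors deposited 1 peak list per library. Each gives, as the authors deposited it, a capped score (not used), a fold enrichment, a −log10 p and −log10 q, and a summit. Peaks sharing 1 bp were merged, and the strongest peak per region and library was kept. Coverage was solved from the fold, taken as (coverage + 1) over (background + 1), and the Poisson p. Positions come from GENCODE vM21 and windows reaching 100 bp to each side of the median summit from GRCm38.p6, where 0 of 1116429 peaks ran past a chromosome end. Exact (Clopper-Pearson, 95%) intervals cover counting error only, and regions are not replicates. No test was run on the contrast that chose the regions. Total depth is unknown here. The coverage step and the rule were tested on simulated data. Python 3.11.15, pandas, scipy and pysam were used.

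The regions, gene lists and motifs were chosen with earlier results of these data known, among them the word ACTGTA. Regions named are the 10 of largest ratio, the 5 of highest lowest GR-KO value (1 of them is not reported here), the 3 on each side of the limit, those nearest to or within 100 kb of genes that the study names, at most 4 of each other list, and genes nearest to 3 or more. Alternatives were other values, limits, filters and windows, and leaving out each library.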

Additional observations from a re-analysis of the deposited data

How the results depend on the processing

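The 445 strengthened regions became 732 with −log10 p divided by the library's median over shared regions (844 weakened), 107 by fold (239), 1148 at a looser ratio (2923), 120 at a ratio of 2 (438) and 251 at a minimum of 40 (739). By summit coverage over the library's median there were 373 (509 weakened, against 1278), and over its lowest background, added after the data were seen, 217 (602). Weakened regions outnumbered strengthened ones under each of these, by the least with the median scaling. Leaving out 1 library gave 666 to 785 strengthened and 1854 to 2255 weakened regions, more because fewer libraries had to differ. Without GR-con 1, 2 or 3 or GR-KO 2 or 3 the strengthened count rose by over 1.5 times, to 703, 768, 700, 708 and 785. The share with ACTGTA, 36.6%, was 31.0% with the median scaling, 43.9% by fold, 26.7% at the looser ratio, 46.7% at a ratio of 2, 47.5% by coverage over background, 50.6% in windows of 200 bp to each side and 28.8 to 31.8% with a library left out. The share in promoters, 2.92%, stayed within its interval under every alternative, and the left-out share, 83.4% as the median of the 9 pairs, was 85.6% with the median scaling, where the share over all regions that met the minimum also rose, to 58.2 to 60.9% against 37.8 to 48.1%. By fold the full GR site was at 1 of 107 regions. Among 499 other values, 471 stayed within the interval of the main value and 28 did not. They belong to 41 results, of which 19 moved at least once. No paired analysis was possible because libraries of the same number share only that number, and no test was run to which a pairing could be added. Total depth was unknown, and −log10 p rises with depth, so a difference in depth between groups cannot be told apart from one in openness by −log10 p alone.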
